A study of Mus musculus with 12 samples.

Results

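The genes that fold secretory proteins in the endoplasmic reticulum (ER), sense unfolded protein there and send failed protein to degradation were followed in MIN6 cells, a mouse insulinoma line used as a beta-cell model, after depletion of the beta-cell transcription factor Pdx1. The genes were chosen by symbol, from what they are known to do, and with earlier results of these data known. They were 22 chaperones and isomerases, 5 genes of the sensor arm and 11 genes of ER-associated degradation. The sensor arm, called sensors below, holds Ern1, Eif2ak3, Atf6, Atf6b and the effector Xbp1, which is not itself a sensor. All 38 were among the 12643 genes measured, and the filter on low counts removed none of them. The fewest counts that a member had in any library were 520. Nucleofection brought a Pdx1 siRNA, or an siRNA labelled NT, into cells at passage 29, and cells were collected 72 h later, so the NT cells went through nucleofection as well. Each siRNA gave total RNA and IP RNA, the RNA that comes down with affinity-purified ribosomes in translating ribosome affinity purification (TRAP). The 4 groups, NT total, Pdx1 total, NT IP and Pdx1 IP, had 3 libraries each. All cells belong to 1 line, and the labels say neither how the ribosomes were tagged nor whether replicates were separate cultures, so the spread behind each p-value may be technical.

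Beta cells make proinsulin in large amounts, and its disulfide bonds are formed in the ER with the help of chaperones such as Hspa5 (BiP) and protein disulfide isomerases. When unfolded protein accumulates, BiP leaves the lumenal domains of the sensors Ern1 (IRE1), Eif2ak3 (PERK) and Atf6. IRE1 splices Xbp1 mRNA, PERK phosphorylates eIF2 alpha and Atf6 is cut in the Golgi, and together they raise chaperone and degradation genes. Proteins that do not fold are recognised by Os9 and the Edem proteins, pass the membrane through the Sel1l, Syvn1 and Derlin complex and are extracted by the ATPase Vcp. The ER stress response element, to which Atf6 and Xbp1 bind, is the known promoter element of this response.

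The promoter stretches that hold an exact match to this element are shown first, because they mark members that share a known control sequence. Members without a match may hold a variant of it or a copy outside the stretch searched, which was not tested. Promoters (250 bases before to 50 bases after a start site) came from RefSeq on GRCm38.p6, the assembly behind mm10, and 33 of the 38 members matched by symbol; Hyou1, Manf, Sil1, Atf6 and Derl1 did not. The 2 motifs searched, on both strands, were ERSE (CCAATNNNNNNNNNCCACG) and ERSE-II (ATTGGNCCACG), whose letters can overlap at CCACG. One or the other was found in 11 members, against 0.155% of all 32851 promoters in the table and 26 of the 10081 tested genes with a promoter (0.258%). The capitals below mark the match, read 5′ to 3′ on the gene's strand with 20 bases on either side. Hspa5, Dnajc3, Canx and Syvn1 stand for members with the motif whose total RNA was higher after Pdx1 siRNA, Hsp90b1, Pdia6, Creld2 and Dnajb11 for members that passed no siRNA test, and Derl3 for the member that was lower.
Hspa5: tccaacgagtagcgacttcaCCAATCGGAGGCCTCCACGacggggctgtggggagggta
Dnajc3: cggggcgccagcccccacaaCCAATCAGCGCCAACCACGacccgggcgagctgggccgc
Canx: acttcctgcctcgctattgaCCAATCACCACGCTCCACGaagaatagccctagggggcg
Syvn1: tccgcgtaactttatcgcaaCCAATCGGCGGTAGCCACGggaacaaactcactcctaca
Hsp90b1: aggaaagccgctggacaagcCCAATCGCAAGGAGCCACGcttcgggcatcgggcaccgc
Pdia6: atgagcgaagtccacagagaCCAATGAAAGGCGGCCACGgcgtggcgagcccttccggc
Creld2: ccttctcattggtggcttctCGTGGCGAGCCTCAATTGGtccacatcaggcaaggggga
Dnajb11: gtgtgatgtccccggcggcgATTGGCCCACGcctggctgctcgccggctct
Derl3: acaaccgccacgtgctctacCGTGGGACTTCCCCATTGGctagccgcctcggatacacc
On mm10 these lie at chr2:34772005-34772063 (plus strand, Hspa5), chr14:118937807-118937865 (plus, Dnajc3), chr11:50325780-50325838 (minus, Canx) and chr19:6046512-6046570 (plus, Syvn1). The second set lies at chr10:86705618-86705676 (minus, Hsp90b1), chr12:17266471-17266529 (plus, Pdia6), chr15:88819500-88819558 (plus, Creld2), chr16:22857832-22857882 (plus, Dnajb11) and chr10:75893222-75893280 (plus, Derl3). Hsp90b1 holds a further match nearer its start site, and the other members with a match were Calr and Herpud1. In Hspa5 the match begins 65 bases before the start site, in Syvn1 44 bases and in Hsp90b1 212 bases before it. The Dnajb11 match, of the ERSE-II kind, begins 7 bases after the start site. A match describes letters in this window only.

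Pdx1 itself checked the labels. Its level was 117.9, 123.2 and 109.6 CPM (read counts relative to a library size scaled by TMM factors) in the NT total libraries and 47.6, 57.4 and 47.9 in the Pdx1 total libraries. In IP RNA the NT libraries had 103.6, 115.1 and 111.3 CPM and the Pdx1 libraries 50.6, 46.7 and 39.2 CPM. The groups did not overlap in either fraction. The log2 fold change was −1.20 ± 0.10 (SE, edgeR quasi-likelihood test, adjusted p = 9.97e-08) in total RNA and −1.27 ± 0.10 (adjusted p = 4.28e-08) in IP RNA.

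Libraries held 29430690 to 45806807 counts over genes. All 10 beta-cell markers on the list were measured. Their summed level was 102648 to 113650 CPM in NT total and 93154 to 99340 CPM in Pdx1 total libraries, which did not overlap, while the IP libraries overlapped, with 202902 to 237396 CPM for NT siRNA and 184503 to 227991 CPM for Pdx1 siRNA. The insulin genes Ins1 and Ins2 took 9.33% to 10.2% of counts in NT total and 6.69% to 7.36% in Pdx1 total libraries, while the IP libraries gave 15.33% to 18.01% with NT siRNA and 11.91% to 13.67% with Pdx1 siRNA. Of 7 markers of other islet endocrine cells, 4 were measured, with Gcg the largest, and their summed level was 890.6 to 915.1 CPM for NT total libraries, 3385 to 3867 CPM for Pdx1 total, 1656 to 1703 CPM for NT IP and 5851 to 6632 CPM for Pdx1 IP libraries. The other endocrine markers, the insulin share of raw counts and, in total RNA, the beta-cell sum therefore moved with the siRNA results below. Their part in those results was not tested. Markers of acinar, ductal, stromal, endothelial and immune cells had no measured gene here. In genes that have a near-identical copy at another locus, NT IP replicate 3 was taken to resemble the 3 Pdx1 IP libraries. These 4 are called the mapping set. The labels name no such set, values for this resemblance are not given here, and its origin was not tested. It enters as a term in an alternative fit, and the calls of members that this term ended are named with the results. In bulk RNA, fewer cells of a type and less RNA per cell cannot be told apart.

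Folding enzymes held the highest levels per transcript length. In NT total RNA, P4hb (a protein disulfide isomerase, chr11:120560298-120573253) had 1530 ± 78 CPM per kb (SD, n = 3) and the lectin chaperone Calr (chr8:84842088-84846931) had 1454 ± 57. Hspa5 (chr2:34772090-34776529) had 1098 ± 44, Pdia6 1072 ± 43 and Hsp90b1 (GRP94) 1071 ± 46 CPM per kb, 3 neighbours within their spread. Pdia3 followed at 882 ± 32, the prolyl isomerase Fkbp2 at 787 ± 62 and the prolyl isomerase Ppib at 671 ± 47 CPM per kb. Sensors and degradation genes were far lower. Among sensors, Xbp1 had 153.2 ± 5.1 CPM per kb and Ern1 24.0 ± 1.4. Among degradation genes, Os9 was highest at 252 ± 15 and Derl3 lowest at 15.8 ± 0.9 CPM per kb. The 38 members together took 3.66% to 3.85% of a library's raw gene counts in the NT total group and 3.83% to 4.20% in the Pdx1 total group. The NT IP libraries gave 3.21% to 3.37% and the Pdx1 IP libraries 3.30% to 3.46%. These raw shares overlapped between the siRNA groups in both fractions. They carry neither TMM factors nor a correction for length, so they are not on the scale of the CPM values or of the siRNA tests.

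**Figure D1:**
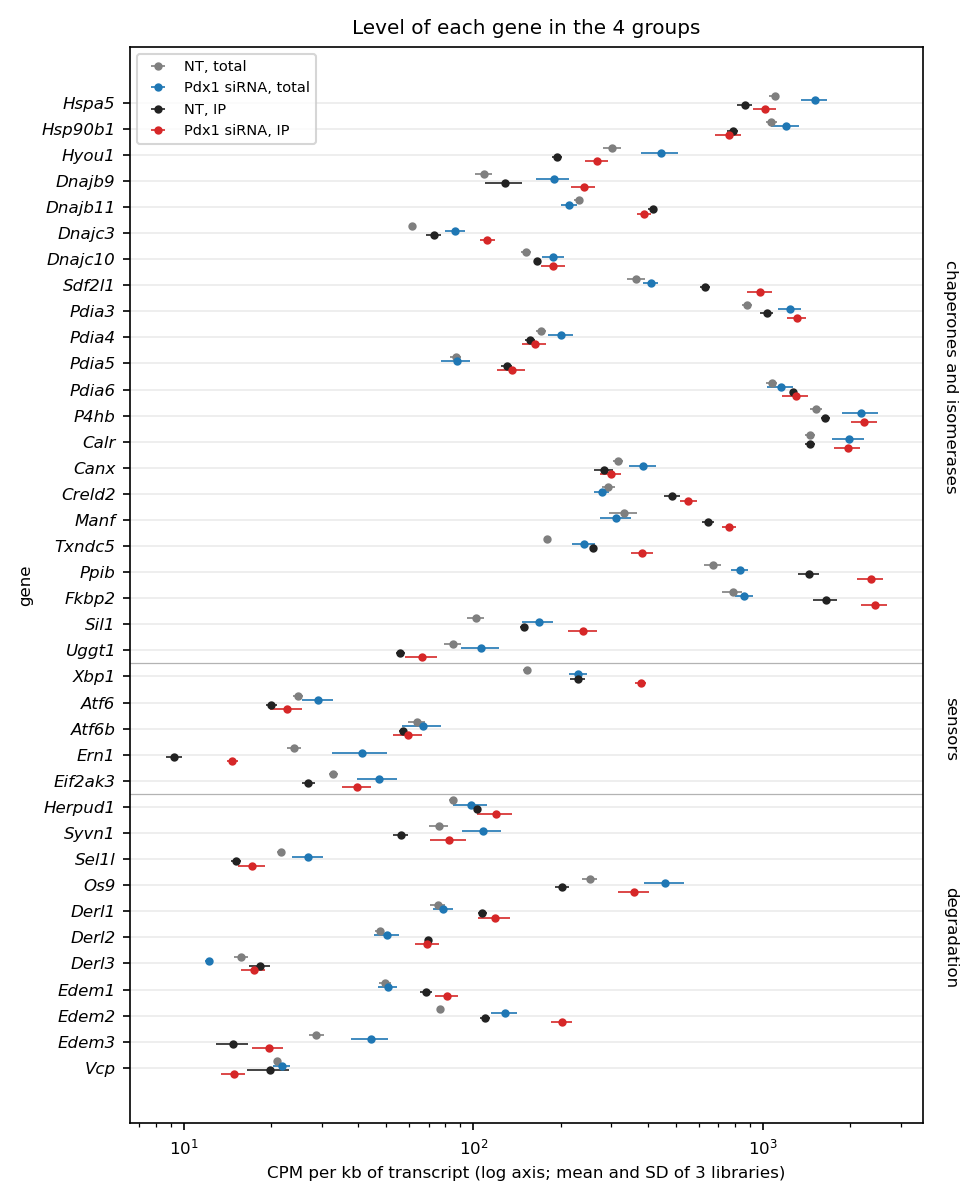
Level of each of the 38 genes (vertical axis, by arm) as CPM per kb of transcript (horizontal log axis); points are the mean and bars the SD of 3 libraries, and colours mark the 4 groups. P4hb and Calr lie furthest right in NT total RNA, at 1530 and 1454 CPM per kb, Derl3 lies furthest left there, and Fkbp2 and Ppib lie further right in IP than in total RNA.

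After Pdx1 siRNA, more members were higher than lower in total RNA. The edgeR test called 22 of 38 higher and 1 lower, against 23.8% of all genes higher, 29.2% lower and 53.0% called in either direction. The median log2 fold change was 0.31 over members and −0.041 over all genes tested. A positive value was found for 34 of 38 members, beside 5778 of all 12643 genes. These changes are relative to the typical gene. With libraries scaled by their total alone, a setting added after the data were seen, the median of all genes moved to −0.32 and that of the members to 0.034. Under that scaling 16 members were higher and 10 lower (11.7% and 55.0% of all genes), and the 16 were all among the 22. The values of 13 members changed sign. The NT total libraries had TMM factors of 1.22 to 1.23 and the Pdx1 total libraries 0.95 to 1.07, so the scaling differs between the groups compared. Relative to library totals, the list's median was thus close to 0, with single genes called in each direction.

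Among the 22 chaperones and isomerases, 14 were higher in total RNA and none lower, with a median log2 fold change of 0.31 (9 higher and 5 lower, median 0.035, by library totals). Dnajb9, a cochaperone of BiP that dampens IRE1, rose most in this arm, from 270.0, 248.8 and 284.8 CPM to 490.4, 398.1 and 512.4 CPM. All 3 Pdx1 libraries lay above all 3 NT libraries, and the log2 fold change was 0.80 ± 0.12 (SE, adjusted p = 5.25e-05). Sil1, a nucleotide exchange factor that releases substrates from BiP, went from 167.5, 187.3 and 165.6 CPM to 249.4, 290.5 and 317.8 CPM, a log2 fold change of 0.72 ± 0.10 (adjusted p = 3.07e-05). Hspa5 was at 2798, 3001 and 2806 CPM with NT siRNA and at 3638, 3823 and 4414 CPM with Pdx1 siRNA. Its groups did not overlap, with a log2 fold change of 0.46 ± 0.10 (adjusted p = 0.00141). P4hb, the most abundant member, went from 4252, 4633 and 4243 CPM to 5346, 6263 and 7126 CPM (log2 fold change 0.51 ± 0.12, adjusted p = 0.00158). Calr, which retains glycoproteins for refolding, had a log2 fold change of 0.45 ± 0.11 (adjusted p = 0.00308). Hyou1 (0.56), Dnajc3 (0.50), Pdia3 (0.49), Txndc5 (0.43), Uggt1 (0.33), Dnajc10 (0.31), Ppib (0.31), Canx (0.29) and Pdia4 (0.23) completed the genes that rose. Of the 14, Dnajc10, Pdia4, Canx, Ppib and Uggt1, were not called when libraries were scaled by their totals.

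The other 8 chaperones did not pass the test in total RNA. Hsp90b1, the ER member of the Hsp90 family, was at 2929, 3173 and 2976 CPM with NT siRNA and 3051, 3322 and 3810 CPM with Pdx1 siRNA, with overlapping groups and a log2 fold change of 0.17 ± 0.10 (adjusted p = 0.195). Dnajb11, a BiP cochaperone, had 455.1, 428.5 and 451.6 CPM against 420.2, 382.7 and 434.3 CPM (−0.11 ± 0.08, adjusted p = 0.263). The log2 fold changes of the other 6 were 0.17 for Sdf2l1, 0.13 for Fkbp2, 0.10 for Pdia6, 0.013 for Pdia5, −0.077 for Creld2 and −0.086 for Manf. By library totals, Dnajb11, Pdia5, Pdia6, Creld2 and Manf were called lower.

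Of the 5 sensor genes, 3 rose in total RNA and none fell (median log2 fold change 0.52, and 0.24 by library totals, where the same 3 rose and Atf6b fell). Ern1 went from 157.1, 176.8 and 166.7 CPM to 216.8, 308.3 and 334.7 CPM, a log2 fold change of 0.78 ± 0.12 (adjusted p = 7.34e-05). Xbp1, whose mRNA IRE1 splices, went from 328.9, 314.3 and 335.4 CPM to 492.8, 452.9 and 521.5 CPM (0.58 ± 0.08, adjusted p = 2.65e-05). Eif2ak3, the kinase PERK, went from 144.7, 154.0 and 145.5 CPM to 180.7, 209.7 and 246.9 CPM (0.52 ± 0.11, adjusted p = 7.33e-04). For each of these 3 genes the NT and Pdx1 libraries did not overlap. Atf6 (0.24, adjusted p = 0.0625) and Atf6b (0.068, adjusted p = 0.621) did not pass. Gene counts do not separate the spliced and unspliced forms of Xbp1.

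Among the 11 degradation genes, 5 rose and 1 fell in total RNA, with a median log2 fold change of 0.21 (−0.071 by library totals, with 4 higher and 4 lower). The substrate receptor Os9 (chr10:127094259-127121160) went from 649.4, 706.6 and 633.5 CPM to 999.5, 1253.2 and 1380.6 CPM. Its log2 fold change of 0.87 ± 0.12 (adjusted p = 2e-05) was the largest of all members in total RNA. Edem2 (chr2:155701673-155729475), which trims mannose from glycoproteins bound for degradation, had the smallest p-value of all members. It went from 177.0, 176.6 and 173.3 CPM to 267.0, 288.2 and 324.9 CPM (0.74 ± 0.09, adjusted p = 4.15e-06). Edem3 rose by 0.62 ± 0.12 on the log2 scale (adjusted p = 3.64e-04), the ubiquitin ligase Syvn1 by 0.51 ± 0.12 (adjusted p = 0.00216) and its partner Sel1l by 0.32 ± 0.09 (adjusted p = 0.0109). Derl3, a Derlin of the retrotranslocation complex, fell from 19.8, 22.1 and 20.6 CPM to 16.0, 15.7 and 16.7 CPM (−0.37 ± 0.08, adjusted p = 0.00171). The Edem family thus split in total RNA, since Edem1 was at 289.6, 274.6 and 301.1 CPM against 296.4, 271.3 and 316.7 CPM (0.032 ± 0.087, adjusted p = 0.784). By library totals Edem1 was lower (−0.25, adjusted p = 0.00696) and Edem2 and Edem3 stayed higher. Herpud1 (0.21), Derl2 (0.086), Derl1 (0.062) and Vcp (0.057) did not pass.

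**Figure D2:**
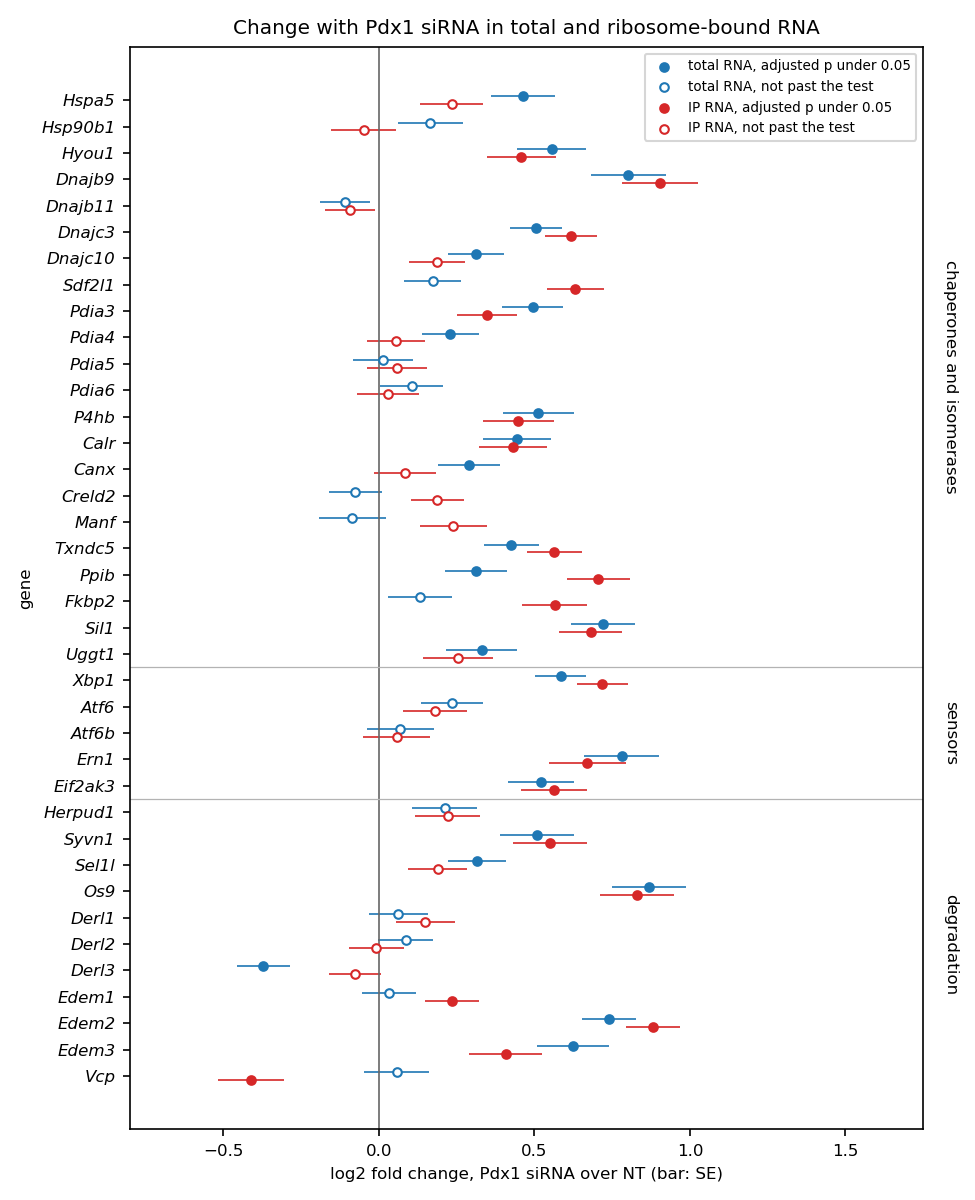
Log2 fold change after Pdx1 siRNA against NT siRNA (horizontal axis) of each of the 38 genes (vertical axis, by arm) in total RNA (blue) and IP RNA (red); points are edgeR estimates, bars ± 1 SE, and filled points passed the adjusted threshold. Os9 (0.87) lies furthest right in total RNA and Dnajb9 (0.90) in IP RNA, and Derl3 in total RNA and Vcp in IP RNA are the filled points left of 0.

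In RNA bound to ribosomes the same comparison called 19 of 38 members higher and 1 lower, against 29.2% of all genes higher, 30.4% lower and 59.7% in either direction. The median log2 fold change was 0.25 for members and −0.010 for all genes. By library totals the members' median was −0.065 and that of all genes −0.32, with 13 members higher and 10 lower (13.4% and 53.5% of all genes). The TMM factors of the NT IP libraries were 0.984 to 1.01, and those of the Pdx1 IP libraries 0.752 to 0.866. Per arm, 11 of 22 chaperones were higher and none lower (median 0.30, and −0.012 by library totals), 3 of 5 sensors were higher (0.56, and 0.25) and 5 of 11 degradation genes were higher and 1 lower (0.22, and −0.095). Edem2 again had the smallest p-value, with 247.2, 245.0 and 262.2 CPM in NT IP and 458.0, 427.5 and 502.9 CPM in Pdx1 IP (log2 fold change 0.88 ± 0.09, adjusted p = 5.41e-07). Dnajb9 went from 347.6, 338.7 and 262.6 CPM to 533.6, 594.8 and 647.4 CPM (0.90 ± 0.12, adjusted p = 1.32e-05). Os9 had a log2 fold change of 0.83 ± 0.12 (adjusted p = 2.54e-05), Xbp1 0.72 ± 0.08 (adjusted p = 2.63e-06) and Sil1 0.68 ± 0.10 (adjusted p = 4.21e-05). All 3 Pdx1 IP libraries lay above all 3 NT IP libraries for these 5 genes. By library totals, Hyou1 (0.14), Pdia3 (0.035), P4hb (0.13), Calr (0.12), Edem3 (0.094) and Edem1 (−0.077) were not called in IP RNA. The 4 IP libraries of the mapping set leave NT siRNA 1 library. With these alone, the IP calls of Hyou1, Pdia3, P4hb, Calr and Fkbp2 were lost. Their log2 fold changes there were 0.43, 0.43, 0.46, 0.47 and 0.43.

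The genes that rose in IP RNA but did not pass in total RNA were Sdf2l1, Fkbp2 and Edem1. Sdf2l1, a partner of the BiP cochaperones, was at 695.1, 677.7 and 728.9 CPM in NT IP and 1091, 975.2 and 1190 CPM in Pdx1 IP (0.63 ± 0.09, adjusted p = 3e-05). Fkbp2 went from 1051, 961.9 and 1159 CPM to 1618, 1385 and 1693 CPM (0.57 ± 0.10, adjusted p = 2.63e-04). Edem1 had a log2 fold change of 0.23 ± 0.09 (adjusted p = 0.0303) in IP RNA, a call lost without NT IP replicate 1 or 2 or Pdx1 IP replicate 3 (adjusted p = 0.0750, 0.125 and 0.145) and with the mapping set as a term (adjusted p = 0.320). By library totals Edem1 had −0.077 in IP RNA. A further 6 genes, Hspa5, Dnajc10, Pdia4, Canx, Uggt1 and Sel1l, rose in total RNA without passing in IP RNA. For Hspa5 the IP levels were 2321, 2355 and 2110 CPM with NT siRNA and 2604, 2441 and 2933 CPM with Pdx1 siRNA, which did not overlap (0.23 ± 0.10, adjusted p = 0.0613). The fractions shared 16 members that rose in both, and 11 passed in neither. Shares of all genes for these joint calls are not given here. Both fractions come from the same siRNA conditions, so the shared calls are not independent observations.

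Vcp was the member called lower in IP RNA, and its value rests on reads that may belong elsewhere. It had 72.2, 71.1 and 53.2 CPM in NT IP and 54.6, 46.1 and 47.2 CPM in Pdx1 IP (log2 fold change −0.41 ± 0.11, adjusted p = 0.00357), so NT replicate 3 lay below 1 Pdx1 library and the groups overlapped. Of its transcript, 73.0% matches the near-identical copy Vcp-rs. Vcp was not called with the mapping set as a term, where its log2 fold change was −0.11. With only the 4 libraries of that set it was −0.12. Both values rest on NT IP replicate 3 as the NT library. Ppib shares 57.6% of its exon bases with Snx22 on the opposite strand and Hsp90b1 shares 21.6% with other annotated genes. Whether strand was used in counting is not given in the sources used here, so these reads cannot be told apart.

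The third Pdx1 library of each fraction had the highest values. Relative to the NT mean, the median over the 38 genes was 0.18, 0.26 and 0.45 on the log2 scale in Pdx1 total libraries 1 to 3 and 0.23, 0.17 and 0.44 in Pdx1 IP libraries 1 to 3. With both libraries numbered 3 left out, 21 members were higher and 1 lower in total RNA (median 0.25) and 18 were higher and 1 lower in IP RNA (median 0.18). Over all genes this setting gave 22.9% higher and 22% lower in total RNA, and 26.5% and 27.2% in IP RNA. Canx, Sel1l, Pdia4 and Uggt1 lost their calls in total RNA when Pdx1 total replicate 3 alone was left out (adjusted p = 0.108, 0.0614, 0.198 and 0.118). Pdia4 also lost its call without NT total replicate 1 or 3 or Pdx1 total replicate 2, and Uggt1 without NT total replicate 1 or Pdx1 total replicate 2 (adjusted p = 0.0576 to 0.0825).

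**Figure D3:**
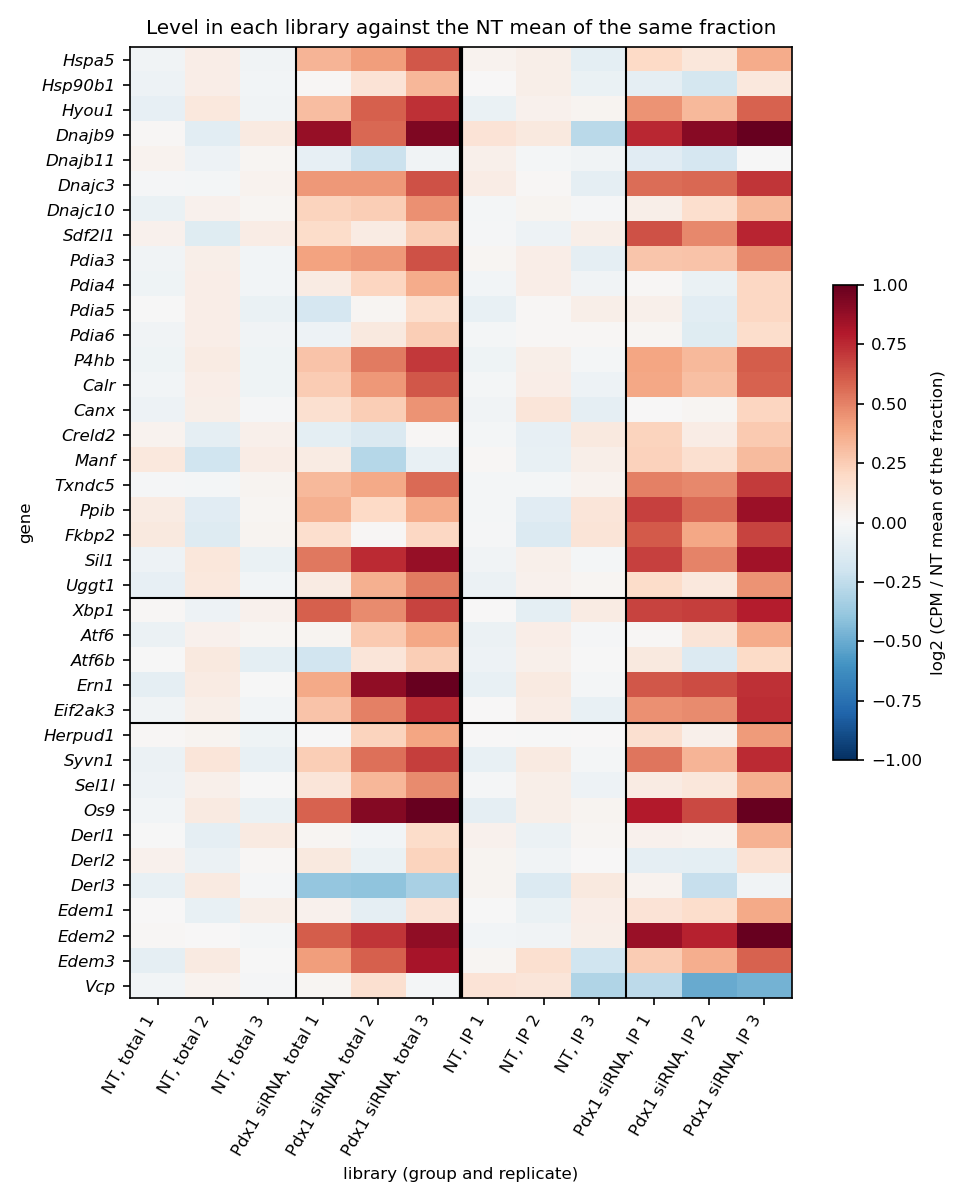
Heat map of the 38 genes (rows, by arm) in the 12 libraries (columns); colour is the log2 ratio of a library's CPM to the mean of the NT libraries of the same fraction, with values beyond ± 1 shown at the end of the scale. Red cells fill most Pdx1 columns, darkest in the third Pdx1 library of each fraction, whose medians are 0.45 and 0.44, and Derl3 in Pdx1 total and Vcp in Pdx1 IP are blue.

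Members with and without an exact match to either promoter motif were set side by side. Of the 11 with a motif, 5 rose and 1 fell in total RNA (median log2 fold change 0.21), and 3 rose in IP RNA (median 0.19). Of the 22 whose promoter held neither motif, 15 rose in total RNA (median 0.32), and 14 rose and 1 fell in IP RNA (median 0.43). Over all genes 23.8% were higher in total RNA and 29.2% in IP RNA, a share close to that of the 11 genes with a motif in IP RNA. By library totals, 4 genes with a motif were higher and 4 lower in total RNA (median −0.071), and 2 were higher and 5 lower in IP RNA (median −0.12). Of the 22 without one, 10 were then higher and 4 lower in total RNA (median 0.042), and 10 were higher and 5 lower in IP RNA (median 0.11). Of the 4 windows shown first, Dnajc3 and Syvn1 belong to genes that rose in both fractions, with log2 fold changes of 0.50 and 0.62 for Dnajc3 and 0.51 and 0.55 for Syvn1 in total and IP RNA. The windows of Hsp90b1, Pdia6, Creld2 and Dnajb11 belong to genes that passed in neither. The 4 largest changes in total RNA, those of Os9, Dnajb9, Ern1 and Edem2, were in genes with a promoter in the table and no match. The difference between the lists was not tested.

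Ribosome-bound RNA was then compared with total RNA under the same siRNA. With NT siRNA, 18 members were higher and 11 lower in IP RNA, against 33.8% and 35.9% of all genes (69.7% in either direction). The members' median log2 ratio was 0.22 and that of all genes −0.021. By library totals it was −0.070 and −0.31, with 14 members higher and 18 lower (15.9% and 52.1% of all genes). The prolyl isomerase Ppib was highest, with a log2 ratio of 1.11 ± 0.10 (adjusted p = 2.24e-07), from 634.4, 552.8 and 607.4 CPM in total to 1274, 1192 and 1403 CPM in IP RNA. Fkbp2 followed at 1.07 ± 0.10 (adjusted p = 4.58e-07). Manf, a secreted ER stress protein, was at 798.1, 647.5 and 784.7 CPM in total and 1467, 1383 and 1514 CPM in IP RNA (0.97 ± 0.11, adjusted p = 1.52e-06). Dnajb11 (0.85), Sdf2l1 (0.79) and Creld2 (0.73) were next.

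At the other end stood Ern1, with 157.1, 176.8 and 166.7 CPM in total and 60.8, 68.5 and 63.3 CPM in IP RNA, a log2 ratio of −1.38 ± 0.12 (adjusted p = 2.02e-07). Edem3 (−0.96), Hyou1 (−0.63), Uggt1 (−0.60), Sel1l (−0.52), Hsp90b1 (−0.44) and Syvn1 (−0.44) were also lower in IP RNA. Per arm, 11 of 22 chaperones were higher and 4 lower (median 0.24, and −0.046 by library totals). In the sensor arm, the effector Xbp1 alone was higher (0.58 ± 0.08, adjusted p = 1.4e-05), and the sensors Ern1, Atf6 and Eif2ak3 were lower. The median of this arm was −0.29 (−0.58 by library totals, with 1 higher and 4 lower). The Eif2ak3 call was lost in 7 of 17 alternatives, among them leaving out any 1 of the 6 libraries compared, and the Atf6 call in 3, without NT total replicate 2 or 3 or NT IP replicate 1. With the mapping set as a term, Pdia6, Eif2ak3, Herpud1 and Derl3 lost their calls with NT siRNA (adjusted p = 0.0841, 0.0777, 0.0547 and 0.123). These genes also lost their calls without NT IP replicate 3, which this term amounts to with NT siRNA. Of the degradation genes 6 were higher and 4 lower (median 0.21, and −0.076 by library totals). Os9, 1 of those lower, lost its call without any 1 of the NT total libraries or without NT IP replicate 1 or 2 (adjusted p = 0.0575 to 0.149). Among the chaperones, Hspa5 lost its call of lower without NT total replicate 2 (adjusted p = 0.0589). Dnajc3 lost its call of higher without NT IP replicate 1 (adjusted p = 0.0643). The Edem family again split, with Edem1 (0.47) and Edem2 (0.52) higher and Edem3 lower in IP RNA, directions that held by library totals.

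With Pdx1 siRNA, 18 members were higher and 14 lower in IP RNA (36.3% and 38.7% of all genes, 75.1% in either direction). By library totals 13 were higher and 20 lower (20.3% and 54.2% of all genes), and the members' median went from 0.13 to −0.20. With the mapping set as a term, which rests on NT IP replicate 3, 16 were higher and 6 lower, with no share of all genes given here. The 8 calls of lower that this ended were those of Hspa5, Pdia4, Canx, Atf6, Eif2ak3, Syvn1, Os9 and Vcp (adjusted p = 0.0731 to 0.591), and Herpud1 and Derl3 lost a call of higher. Ppib and Fkbp2 both had a log2 ratio of 1.50, Manf 1.29, Sdf2l1 1.25 and Creld2 1.00, and Ern1 had −1.49 and Edem3 −1.17. The NT and Pdx1 comparisons use separate libraries.

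The order of these ratios followed transcript length, as it did over all genes. Across the 38 members, Spearman's rho between the IP to total log2 ratio and transcript length was −0.718 with NT siRNA and −0.698 with Pdx1 siRNA, and across 12524 genes with a paired transcript it was −0.628 and −0.604. Genes share their libraries and are not independent replicates, so these values describe the data. All 5 members of 1500 bases or shorter, Fkbp2, Ppib, Sdf2l1, Derl3 and Creld2, were higher in IP RNA with NT siRNA (median 0.79), where 75.0% of all genes of that length were higher (median 0.61). Of 11 members longer than 4000 bases, 2 were higher and 7 lower (median −0.31), beside 8.9% higher and 67.8% lower among all such genes (median −0.47). Dnajc3 and Edem1 were the 2 long genes called higher. By library totals Dnajc3 (−0.036) and the short Derl3 (−0.076) were not called.

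**Figure D4:**
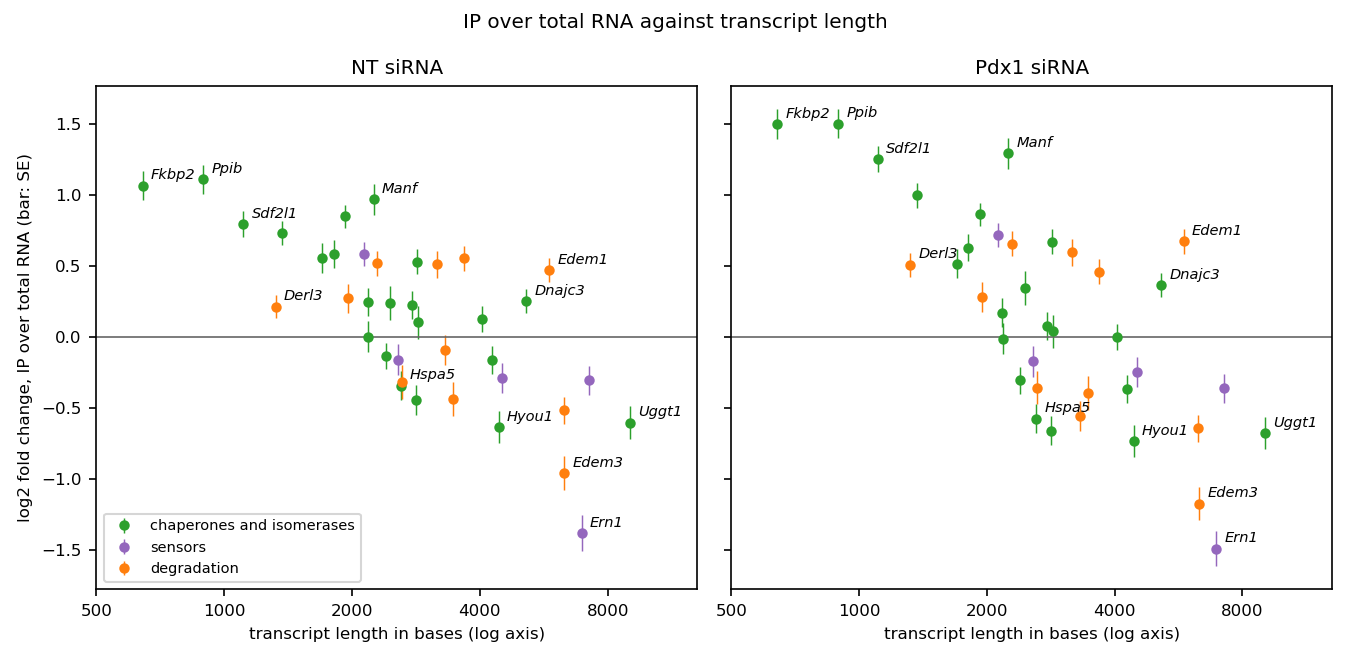
Log2 fold change of IP over total RNA (vertical axis, bars ± 1 SE) against transcript length in bases (horizontal log axis) for the 38 genes, with NT siRNA on the left and Pdx1 siRNA on the right; colours mark the arms. The short Fkbp2 and Ppib lie at the top left and the long Ern1 and Edem3 at the bottom right, with Spearman's rho of −0.718 and −0.698.

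Whether the siRNA effect differed between the fractions was tested directly. No member passed (0 of 38 higher, 0 lower), and few genes did: 0.174% higher, 0.0554% lower and 0.229% in either direction. At an unadjusted p under 0.05 there were 7 members, 6 with a larger effect in IP RNA and 1 with a smaller one. The share of all genes at that threshold is not given here, so this count is not read as a result. DESeq2's Wald test called 1 member, Sdf2l1, beside 2.59% of all genes. The largest differences, IP minus total, were 0.46 ± 0.13 for Sdf2l1 (edgeR adjusted p = 0.0968), 0.43 ± 0.15 for Fkbp2 (adjusted p = 0.156) and 0.39 ± 0.14 for Ppib (adjusted p = 0.178). Vcp had −0.47 ± 0.15 (adjusted p = 0.136), on the reads described above. By this edgeR fit, the genes called in only 1 fraction were not shown to differ between fractions. The short transcripts stood together here too, with a median difference of 0.39 for the 5 shortest members and 0.17 for all genes of that length.

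**Figure D5:**
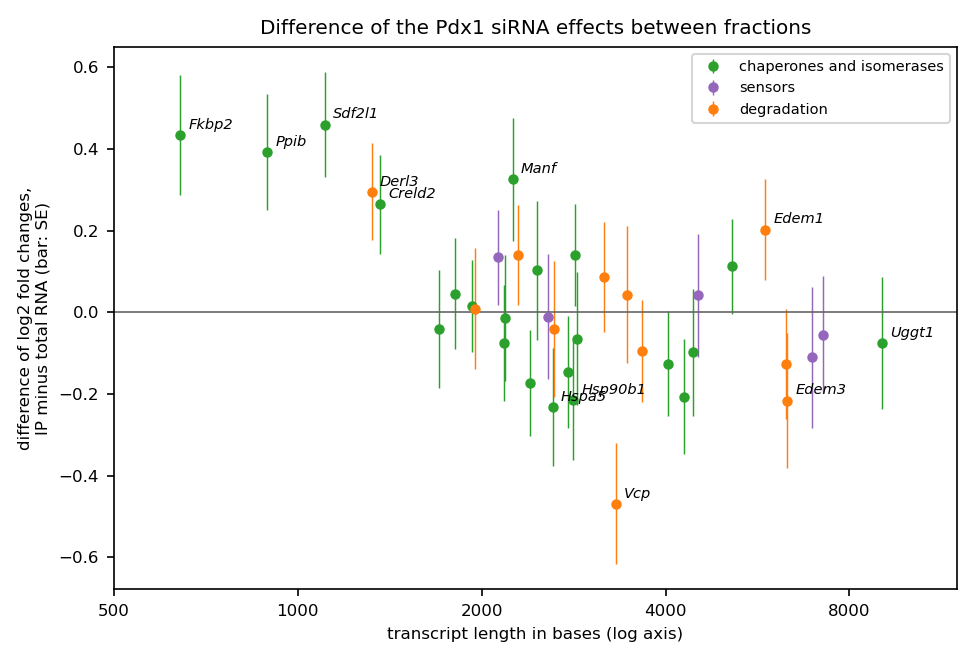
Difference of the siRNA effects (vertical axis, IP minus total log2 fold change, bars ± 1 SE) against transcript length in bases (horizontal log axis) for the 38 genes; colours mark the arms. Sdf2l1 (0.46), Fkbp2 (0.43) and Ppib (0.39) lie highest, all short, and Vcp (−0.47) lowest, and none passed the adjusted threshold.

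Other genes of the same pathways were taken from 3 longer lists that hold none of the 38. These lists, too, were chosen with earlier results of these data known. Of 33 further folding genes, 23 rose and 2 fell in total RNA (median log2 fold change 0.38, and 0.10 by library totals) and 24 rose and 3 fell in IP RNA (0.39, and 0.074). The counts by library totals were 14 higher and 5 lower in total RNA and 11 and 6 in IP RNA. Of 18 further signalling genes, 8 rose and 2 fell in total RNA (0.17, and −0.11 by library totals) and 10 rose and 3 fell in IP RNA (0.35, and 0.034), and by library totals 4 were higher and 6 lower in each fraction. Of 29 further degradation genes, 17 rose and 4 fell in total RNA (0.24, and −0.038) and 15 rose and 3 fell in IP RNA (0.21, and −0.10). By library totals this list had 2 genes higher and 9 lower in total RNA and 4 higher and 10 lower in IP RNA, so more of it was lower than higher. The shares over all genes were 23.8% higher and 29.2% lower in total RNA and 29.2% and 30.4% in IP RNA, and by library totals 11.7% and 55.0%, and 13.4% and 53.5%. Creb3l1, an ER-resident transcription factor, had the largest change, from 3.6, 3.0 and 2.7 CPM to 8.8, 10.8 and 12.1 CPM in total RNA (1.79) and from 2.6, 2.8 and 2.9 CPM to 13.1, 11.8 and 15.6 CPM in IP RNA (2.29). The prolyl isomerase Fkbp11 rose by 1.28 and 1.37 on the log2 scale in total and IP RNA, and Cdnf, a relative of Manf, by 1.02 and 0.92. The lowest were Clgn, a calnexin relative (−0.36 and −0.50), the ubiquitin-conjugating enzyme Ube2j1 (−0.34 in total RNA), Traf2 (−0.40 in IP RNA) and Eif2s1, the eIF2 alpha subunit (−0.33 and −0.79). The Eif2s1 call in total RNA was lost in 7 of 17 alternatives, among them each NT total library and Pdx1 total replicates 2 and 3 left out in turn. Of the Eif2s1 transcript 27.9% matches copies, and its IP value was −0.44 with the mapping set as a term.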

How the data were processed

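RNA was measured in 12 libraries. The authors deposited raw counts per RefSeq transcript, 1 table per library, not normalized; TopHat2, featureCounts and mm10 stand in the submitters' processing notes, with versions not given in the sources used here. Of 17133 transcripts, 16838 had a symbol in RefSeq on GRCm38.p6; the other 295 (0.577% to 0.834% of counts) were left out. Each gene took its transcript with the highest total.

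edgeR 4.0.16 (R 4.3.3) fitted all libraries in 1 quasi-likelihood model with a mean per group, TMM scaling and the default filter, which removed 0 of 12643 genes. P-values were adjusted by Benjamini-Hochberg over all genes and called under 0.05; rose, fell, higher and lower mean calls by this test. Lists are described by counts and medians. Alternatives covered other scalings, filters, DESeq2 1.42.0, the replicate number as a block and each library left out; scaling by library totals and leaving out both Pdx1 libraries numbered 3 were chosen after seeing the data. The members and lists were chosen with earlier results of these data known. Named were Pdx1, all members, and of the wider lists the 3 highest and 3 lowest called genes per fraction. Copies were found with minimap2 2.31 on GENCODE M21 transcripts (at least 100 bases, 95% identity), which also gave transcript lengths. Figures used Python 3.11.15. Tested on simulated data over 12643 genes, the edgeR fit recovered 86% of 1.5-fold and 20% of 1.25-fold changes in total RNA, 76% and 30% in IP RNA, and 50% and 4% for the difference between fractions. In these simulations 50 genes changed per fold tested, and all other genes had the same mean in all groups. In the data 53.0% of genes were called in total RNA, so the adjustment works differently there. These shares therefore do not give the recovery in the data. Intervals cover the spread of libraries only. Counts come from PCR reads without molecular identifiers.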

Additional observations from a re-analysis of the deposited data

How the results depend on the processing

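Scaling by library totals, with no factors, changed the most. It moved the members' median log2 change to 0.034 in total RNA, −0.065 in IP RNA, −0.070 for IP against total RNA with NT siRNA and −0.20 with Pdx1 siRNA, with 10, 10, 18 and 20 members called lower. It lowered the median of all genes to between −0.34 and −0.31 in these comparisons. Values that changed sign and were called under at least 1 of both scalings were, in total RNA, Pdia4 −0.052, Pdia5 −0.27, Pdia6 −0.18, Atf6b −0.21, Derl1 −0.22, Derl2 −0.19 and Edem1 −0.25. In IP RNA they were Pdia4 −0.26, Pdia5 −0.26, Pdia6 −0.28, Canx −0.23, Atf6b −0.26 and Edem1 −0.077. For IP against total RNA with NT siRNA they were Dnajc3 −0.036, Dnajc10 −0.16, Pdia6 −0.043, P4hb −0.19, Calr −0.29, Herpud1 −0.018, Derl3 −0.076 and Traf2 −0.23, and with Pdx1 siRNA Pdia3 −0.24, Pdia6 −0.15, P4hb −0.28 and Herpud1 −0.042. Another 6 members in total RNA, 9 in IP RNA and 2 for IP against total RNA with NT siRNA changed sign without a call under either scaling. No other setting changed the sign of a called result.

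With the mapping set as a term, 6 members were lower in IP against total RNA with Pdx1 siRNA. In IP RNA this term and the fit of the 4 IP libraries alone both rest on NT IP replicate 3 as the 1 NT library. Vcp had log2 fold changes of −0.11 and −0.12 in these fits. With the 4 libraries alone Hyou1 had 0.43, Pdia3 0.43, P4hb 0.46, Calr 0.47 and Fkbp2 0.43. For the difference between fractions, DESeq2 called 1 member higher, and 327 of all genes in either direction where edgeR called 29. The median of IP against total RNA with NT siRNA was 0.26 with RLE factors and 0.26 with DESeq2. Leaving out 1 library at a time gave 0 to 1 members lower and a median of −0.13 to 0.073 for the difference, 7 to 10 members lower and a median of 0.18 to 0.26 for IP against total RNA with NT siRNA, 18 to 24 members higher in total RNA and 18 to 23 in IP RNA. Shares of all genes are not given here for leaving out 1 library at a time or for the mapping set as a term. The member counts under these settings are therefore not read as results. The cause of the changes between settings was not tested.

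Same-numbered libraries deviated together only in part (r of −0.054 to 0.456 between the siRNAs in total RNA and 0.001 to 0.091 in IP RNA). Between total and IP RNA their r was 0.034 to 0.214 with NT siRNA and −0.05 to 0.514 with Pdx1 siRNA. Different-numbered libraries gave −0.188 to 0.076 and −0.376 to 0.251 there. The number was not taken as a pairing, and the labels do not say whether same-numbered fractions share a lysate. With the replicate block, 24 members were higher in total RNA and 24 in IP RNA, and 3 had a larger effect in IP than in total RNA (Sdf2l1, Ppib and Fkbp2). Shares of all genes with this block are not given here. Calls held in all settings for 17 of 23 members in total RNA and 12 of 20 in IP RNA. For IP against total RNA, they held for 21 of 29 members with NT siRNA and 19 of 32 with Pdx1 siRNA. Each member had 520 counts or more per library.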

Other observations

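Outside the 38 genes, 15 tested genes carried an ERSE or ERSE-II match in the same promoter window. In total RNA 1 of them rose and 5 fell after Pdx1 siRNA (median log2 fold change −0.13), and in IP RNA 3 rose and 5 fell (median −0.04). Over all genes 23.8% rose and 29.2% fell in total RNA, and 29.2% rose and 30.4% fell in IP RNA. Nucb1, a calcium-binding protein of the Golgi, rose by 0.71 ± 0.11 (SE) on the log2 scale in total RNA (edgeR adjusted p = 7.63e-05) and by 0.74 ± 0.11 in IP RNA (adjusted p = 4.35e-05). Krtcap2, a subunit of the oligosaccharyltransferase complex, had 0.07 ± 0.11 in total RNA (adjusted p = 0.613) and 0.51 ± 0.11 in IP RNA (adjusted p = 0.00126). The oxidase gene Ero1b, which drives disulfide formation in the ER of beta cells, fell by 0.30 ± 0.10 in total RNA (adjusted p = 0.0197) and by 0.35 ± 0.10 in IP RNA (adjusted p = 0.0068). Of its transcript 21.7% matches a copy. By library totals 1 of the 15 was higher and 12 lower in total RNA (median −0.40), and 1 was higher and 9 lower in IP RNA (median −0.35). Library totals gave 11.7% of all genes higher and 55.0% lower in total RNA, and 13.4% and 53.5% in IP RNA. Nucb1 stayed higher (0.43 in both fractions) and Ero1b lower (−0.58 and −0.66), and Krtcap2 was not called. The genes named here were chosen after their values were seen.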
